A study of Mus musculus with 36 samples.

Results

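Among the 9 untreated brains of mice with experimental autoimmune encephalomyelitis (EAE), 5 carried the spermine binding protein transcript Sbp and 4 did not. Membership was set by measurement: the 5 Sbp-high libraries (untreated replicates 1 to 5) had a counts-per-million (CPM) value of Sbp above 1, taken over the column total, and the 4 Sbp-low libraries (untreated replicates 6 to 9) had it below 1 CPM. These 9 are part of 36 libraries of the whole series. The lowest Sbp-high library held 80 Sbp reads (3.93 CPM) and the highest Sbp-low library held 2 (0.0987 CPM), so no library lay near the threshold. The labels name no difference between the sets, and replicate numbers run through them in order.

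All mice were labelled WT C57BL/6, and RNA came from whole brain on day 19, the stated peak of disease. EAE was induced with a commercial kit, which supplies a MOG (myelin oligodendrocyte glycoprotein) peptide emulsified in Freund's complete adjuvant, and with pertussis toxin. Untreated EAE mice (9) received nothing further, vehicle EAE mice (9) received corn oil by daily gavage, farnesol EAE mice (10) received farnesol at 100 mg/kg/day in corn oil by the same route, and naive mice (8) were healthy. No group had adjuvant and toxin without the peptide, so in comparisons with naive mice these components cannot be told apart from the disease.

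Glucocorticoids bind the glucocorticoid receptor, which switches on genes such as Fkbp5, whose product dampens the receptor in return, and Zbtb16 and Tsc22d3, which encode transcriptional regulators. Interferons act through STAT and IRF factors, which bind interferon-stimulated response elements and switch on antiviral genes, immunity-related GTPases and the machinery of antigen presentation. In EAE, T cells directed against myelin enter the central nervous system, and interferon gamma from them raises MHC class II on microglia and incoming myeloid cells. Sbp and its neighbour Sbpl are best known as products of the mouse prostate, where the Sbp protein is secreted and binds polyamines.

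Sbp (ENSMUSG00000024128) lies at chr17:23941672-23945607 on the plus strand of GRCm38 and Sbpl (ENSMUSG00000024125) at chr17:23953084-23955274 on the minus strand, 7476 bases apart. Their transcripts are 93.7% identical over 820 aligned bases with an identical run of 159 bases, so reads may be shared between them and their separate levels are uncertain. The RefSeq promoter windows (GRCm38, 250 bases before to 50 after a start site) of these genes are shown because Sbp defines the sets, followed by windows of 3 genes that were lower in Sbp-high brains. Capitals mark the glucocorticoid receptor half-site AGAACA (or its reverse complement TGTTCT) in the Sbp window and the interferon-stimulated response element core in the last 3, which was searched as GAAA, any 2 bases and GAAA (or TTTC, any 2 bases and TTTC). The windows were chosen after values and matches were seen, and of 3 Sbp start sites in the table the one whose window holds a match is printed. Sbp is at chr17:23941668-23941967 (plus), Sbpl at chr17:23955224-23955523 (minus), Ifit3 at chr19:34583279-34583578 (plus), Igtp at chr11:58199306-58199605 (plus) and B2m at chr2:122147437-122147736 (plus).
Sbp: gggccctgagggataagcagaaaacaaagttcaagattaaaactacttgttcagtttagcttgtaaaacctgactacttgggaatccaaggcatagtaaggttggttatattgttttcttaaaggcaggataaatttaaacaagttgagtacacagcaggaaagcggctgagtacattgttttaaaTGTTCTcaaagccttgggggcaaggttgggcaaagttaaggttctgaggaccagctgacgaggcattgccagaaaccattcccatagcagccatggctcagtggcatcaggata
Sbpl: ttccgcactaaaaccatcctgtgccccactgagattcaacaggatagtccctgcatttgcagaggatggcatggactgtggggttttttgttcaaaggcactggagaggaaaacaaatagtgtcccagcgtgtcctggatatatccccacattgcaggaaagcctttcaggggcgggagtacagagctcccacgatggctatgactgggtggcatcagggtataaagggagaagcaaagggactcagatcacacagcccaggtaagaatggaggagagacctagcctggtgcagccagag
Ifit3: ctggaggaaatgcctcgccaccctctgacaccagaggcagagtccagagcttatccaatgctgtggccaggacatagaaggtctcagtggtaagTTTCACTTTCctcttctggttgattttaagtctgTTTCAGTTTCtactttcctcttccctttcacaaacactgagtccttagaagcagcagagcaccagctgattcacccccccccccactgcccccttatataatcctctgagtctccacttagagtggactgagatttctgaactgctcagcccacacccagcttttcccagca
Igtp: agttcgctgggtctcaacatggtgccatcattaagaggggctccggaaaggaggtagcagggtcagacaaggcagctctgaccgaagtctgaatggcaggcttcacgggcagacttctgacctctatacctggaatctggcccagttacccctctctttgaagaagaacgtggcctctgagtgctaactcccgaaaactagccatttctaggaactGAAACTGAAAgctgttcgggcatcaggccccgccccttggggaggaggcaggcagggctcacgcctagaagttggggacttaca
B2m: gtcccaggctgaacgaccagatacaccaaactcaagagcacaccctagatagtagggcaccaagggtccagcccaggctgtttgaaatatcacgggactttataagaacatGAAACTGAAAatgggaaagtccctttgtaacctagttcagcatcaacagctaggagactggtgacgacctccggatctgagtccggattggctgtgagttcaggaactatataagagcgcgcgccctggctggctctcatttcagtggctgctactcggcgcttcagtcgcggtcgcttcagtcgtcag
The Sbp window holds 1 half-site, 64 bases upstream of the start, and the Sbpl window holds none. B2m, marked for the response element core, also holds 1 half-site, 146 bases upstream, and Ifit3 and Igtp hold none. Ifit3 holds the response element core 156 and 122 bases upstream, Igtp 34 bases upstream and B2m 139 bases upstream. Both strands of the windows were searched in the 12934 tested genes that the RefSeq table covers. The response element core occurred in 3.75% of these, in 1.47% of the 204 covered genes that were higher in Sbp-high brains and in 10.9% of the 659 covered genes that were lower. Counts by list, here and below, take all covered members, whether or not they passed the count filter. By list, the response element core occurred in 10 of 10 covered interferon gamma GTPases, 11 of 18 type I interferon genes, 3 of 13 MHC class I and immunoproteasome genes and 0 of 7 MHC class II genes. The half-site occurred in 17.6% of higher genes, 18.5% of lower genes and 15.5% of all tested genes. By list, it occurred in 4 of 25 covered glucocorticoid response genes, 2 of 18 type I interferon genes, 2 of 10 interferon gamma GTPases, 3 of 13 MHC class I and immunoproteasome genes and 3 of 7 MHC class II genes. The full palindrome (AGAACA, any 3 bases and TGTTCT) occurred in none of the higher or lower genes and in 1 glucocorticoid response gene. Each palindrome also holds the half-site on both strands. A match is a description of the letters in these windows only.

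Sequencing depth was 14705992 to 21034402 counts in Sbp-high libraries and 20263587 to 24211092 counts in Sbp-low libraries. Untreated replicate 3 stood apart in its anatomy: Pomc, Gh and Prl, hormone genes of the pituitary, measured 350, 872 and 376 CPM there, against at most 5.01, 2.07 and 1.66 CPM in the other untreated libraries. Its summed level of 12 cerebellar genes was 344 CPM, against 1240 to 2439 CPM in the others, and counts of separating genes without it are 458 higher and 1018 lower. The ribosomal RNA gene CT010467.1 measured 1707 to 2553 CPM in Sbp-high, 1309 to 1762 CPM in Sbp-low and 7464 to 10710 CPM in naive libraries, and the part of this difference in results against naive was not tested. Brain transcripts were present throughout, with Syp (synaptic vesicles) at 715 to 919 CPM, Gfap (astrocytes) at 357 to 969 CPM and Mog (myelin) at 39.0 to 82.7 CPM over the 9 untreated libraries. Xist measured 551 to 648 CPM and Y-linked Ddx3y at most 0.0501 CPM in them, so no library had a male transcript pattern. CT010467.1, Syp, Gh, Xist and Ddx3y were named after their values were seen.

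Differences between the sets are described without a test, since Sbp chose the sets and every gene comes from the same libraries. CPM here and below is scaled by library size factors (TMM), and a gene is called higher or lower where all 5 Sbp-high libraries lie above or below all 4 Sbp-low libraries. Its size is the difference of the sets' median log2(CPM + 0.5), which understates the change of genes of low level. Of 18438 genes tested, 283 (1.53%) were higher and 862 (4.68%) were lower in Sbp-high brains, while the median difference of all genes was 0.01. The higher genes moved little, with a median difference of 0.23 and 7 genes over 2-fold, whereas the lower genes had a median size of 0.60 with 206 over 2-fold. The first principal component of the 1000 most variable genes held 49.4% of the variance among untreated libraries and placed the sets apart. On it, Sbp-high replicate 2 (-0.92) and replicate 5 (-2.33) lay nearest to the Sbp-low libraries (11.19 to 16.05).

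**Figure D1:**
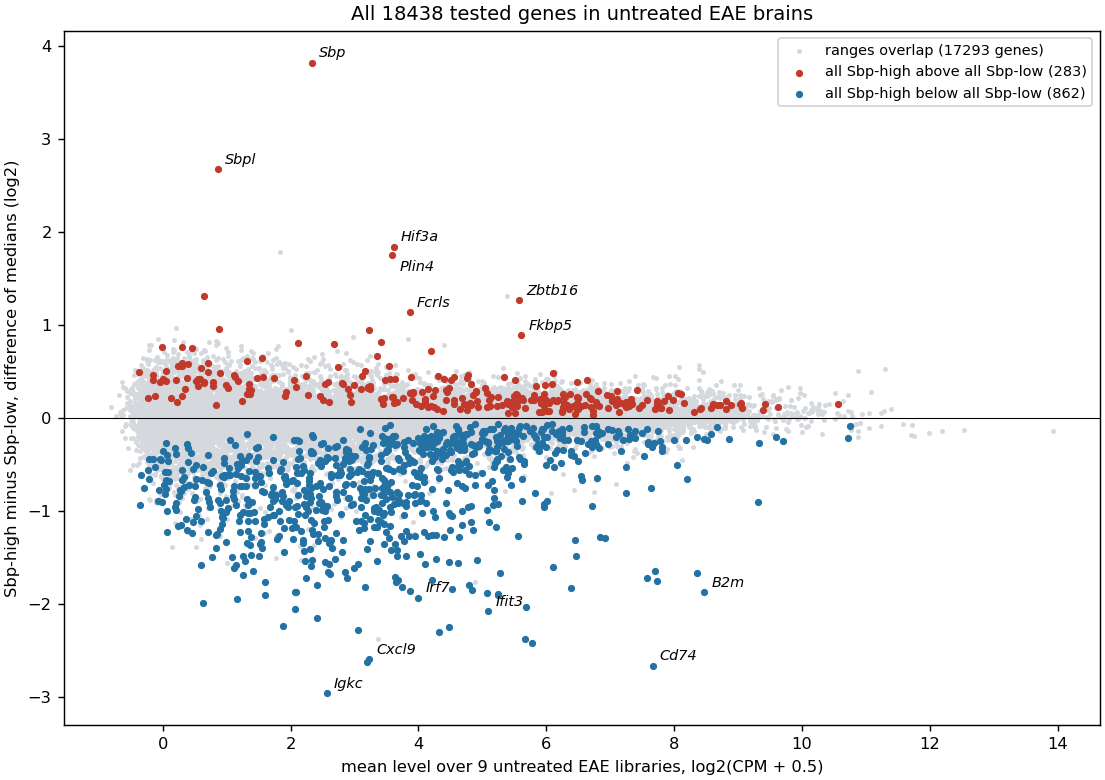
Each point is 1 of 18438 tested genes, with its mean level over the 9 untreated EAE libraries on the x axis (log2(CPM + 0.5)) and the difference of medians, Sbp-high minus Sbp-low, on the y axis (log2). Red points (283 genes) lie higher in all 5 Sbp-high libraries, blue points (862 genes) lie lower in all 5, and the blue points reach further from 0 at nearly all levels.

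Sbp measured 7.20, 5.37, 3.86, 12.3 and 11.7 CPM in Sbp-high replicates 1 to 5, against 0.0422, 0.0414, 0.1002 and 0.0470 CPM in Sbp-low replicates 6 to 9. Sbpl followed, with 2.87, 1.45, 1.74, 3.08 and 2.70 CPM in Sbp-high libraries, against 0, 0.0414, 0 and 0 CPM in Sbp-low libraries. Both transcripts were present or near absent together in all 9. Of 14 genes listed for prostate and salivary gland, the tissues where Sbp-type secretory genes are known, 3 passed the count filter, and their ranges overlapped between the sets. Below the filter, 3 genes named after their values were seen had reads mainly in Sbp-high libraries, though Pbsn not in all of them. Spink1, a trypsin inhibitor of secretory glands, had 8, 8, 8, 37 and 39 reads in Sbp-high libraries, against 0, 1, 0 and 0 in Sbp-low libraries. Msmb, a secreted prostate protein, had 4, 11, 9, 11 and 18 reads in Sbp-high libraries and none in Sbp-low libraries. Pbsn, the prostate protein probasin, had 5, 16, 0, 0 and 1 reads in Sbp-high libraries and none in Sbp-low libraries. In vehicle replicates 3, 4 and 5, Spink1 had 9, 17 and 9 reads, Msmb 10, 4 and 15 and Pbsn 15, 7 and 26, while all 3 genes had 0 reads in the other 6 vehicle, the 10 farnesol and the 8 naive libraries. The other listed genes below the filter reached at most 0.145 CPM in untreated libraries. The part of these transcripts or their source in the differences described below was not tested. In the other groups Sbp reached 7.71 CPM in vehicle, 0.0524 CPM in farnesol and 0.0513 CPM in naive libraries at most.

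Of the 12 named genes with the largest positive differences, 4 answer to glucocorticoids: Hif3a, Plin4, Zbtb16 and Fkbp5. Hif3a, a hypoxia-inducible factor subunit that glucocorticoids raise, measured 22.9, 12.03, 13.8, 21.9 and 17.7 CPM in Sbp-high libraries, against 3.80, 2.48, 5.51 and 5.50 CPM in Sbp-low libraries. The sets were well apart, and the difference of medians was 1.84 log2. Plin4, which encodes a protein that coats lipid droplets, measured 23.3, 7.17, 13.9, 28.02 and 15.6 CPM in Sbp-high libraries, against 4.09, 4.64, 3.06 and 4.42 CPM in Sbp-low libraries. Its difference was 1.76 log2, and Sbp-high replicate 2 was the nearest to the Sbp-low range. Zbtb16 measured 77.3, 61.2, 54.6, 84.5 and 52.0 CPM in Sbp-high libraries, against 29.0, 17.3, 26.2 and 23.9 CPM in Sbp-low libraries, a difference of 1.27 log2. Fkbp5 measured 62.6, 56.6, 55.0, 76.4 and 59.2 CPM in Sbp-high libraries, against 26.8, 31.1, 35.1 and 32.3 CPM in Sbp-low libraries. The Sbp-low values of Fkbp5, Hif3a and Zbtb16 overlapped the naive ranges (25.6 to 33.2, 2.62 to 4.72 and 20.7 to 36.6 CPM), while all Sbp-high values lay above them. Plin4 differed in this, since its Sbp-low values also lay above the naive range of 1.46 to 2.45 CPM.

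The glucocorticoid response list as a whole was mixed. Of its 27 tested genes 6 were higher, 1 was lower and 20 overlapped, with a median difference of 0.21 against 0.01 for all genes. Beside the 4 genes above, Tsc22d3 was higher by 0.41, at 97.7 to 127 CPM in Sbp-high and 71.8 to 94.7 CPM in Sbp-low libraries, and Mertk, a receptor for dying cells, by 0.41. Dusp1, a phosphatase that is also an immediate early gene, was lower, at 29.7 to 35.4 CPM in Sbp-high and 37.4 to 67.5 CPM in Sbp-low libraries. Mertk and Dusp1 were named after their values were seen. Per1, a clock gene that glucocorticoids induce, overlapped at 104 to 127 CPM in Sbp-high and 100.0 to 133 CPM in Sbp-low libraries. Sgk1, a kinase gene, overlapped too, since Sbp-low replicates 8 and 9 (159 and 162 CPM) were as high as the Sbp-high libraries (127 to 161 CPM) and replicates 6 and 7 (75.4 and 100.2 CPM) were lower. Klf9 overlapped with a difference of 0.45. Cdkn1a overlapped with 0.31, which was 0.033 without Sbp-low replicate 6 or 7 and 0.588 without replicate 8 or 9.

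**Figure D2:**
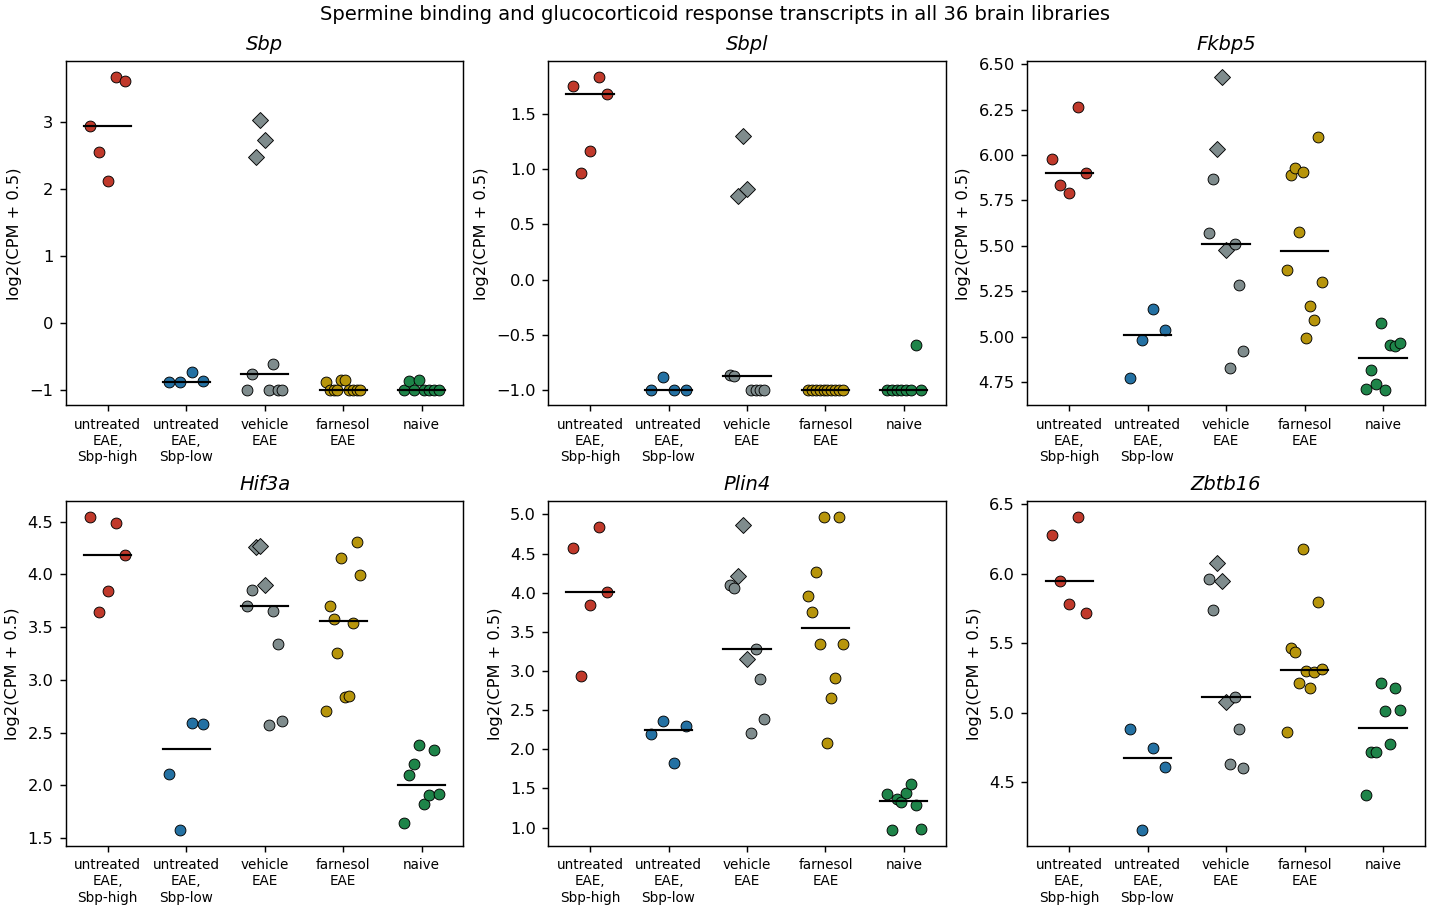
Expression (log2(CPM + 0.5), y axis) of 6 transcripts in each library of untreated EAE brains (Sbp-high, Sbp-low), vehicle EAE, farnesol EAE and naive brains (x axis). Each point is 1 library, bars are medians, and diamonds mark the 3 vehicle libraries with Sbp above 1 CPM. In all 6 panels the Sbp-high untreated libraries lie above the Sbp-low untreated libraries.

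Genes of the receptor side overlapped. None of the 8 tested genes for the receptor and for glucocorticoid metabolism separated the sets, and their median difference was 0.00. Ranges also overlapped for 17293 of all 18438 tested genes, so a list this short may hold none that separates. Nr3c1, the receptor gene, measured 89.5 to 104 CPM in Sbp-high and 101 to 122 CPM in Sbp-low libraries, a difference of -0.28 with ranges that overlapped. The fasting and FOXO list did not separate in 1 direction either: of 26 tested genes 1 was higher and 4 were lower, with a median difference of 0.02. Its higher gene, Klf15, a regulator of amino acid use that glucocorticoids also induce, measured 27.4, 27.4, 32.4, 38.4 and 30.5 CPM in Sbp-high libraries, against 18.2, 21.2, 24.3 and 22.6 CPM in Sbp-low libraries. Angptl4, which restrains lipoprotein lipase, showed 0.64 with ranges that met, at 4.25 to 5.84 CPM in Sbp-high and 1.90 to 4.51 CPM in Sbp-low libraries. Pdk4, which fasting raises in muscle, and Irs2, which it raises in liver, overlapped with differences of 0.09 and 0.16, which shifted between 0.02 and 0.196 when 1 library was left out. Txnip, an inhibitor of thioredoxin, was among the 4 lower genes, by 0.38 in size. In the hypothalamus, fasting raises Agrp and Npy, and both overlapped, with Agrp at 0.933 to 1.35 CPM in Sbp-high and 0.601 to 1.13 CPM in Sbp-low libraries. A fasting label for the Sbp-high set is not borne out by these lists.

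Other named genes higher in Sbp-high brains were of several kinds. Fcrls, a gene of resting microglia, measured 18.0, 17.3, 18.1, 16.4 and 21.8 CPM in Sbp-high libraries, against 5.36, 13.1, 10.7 and 5.78 CPM in Sbp-low libraries. The naive range was 19.98 to 26.5 CPM, and the highest Sbp-high value lay within it. Among 12 genes of homeostatic microglia, Fcrls alone had a positive difference, while 7 were lower and the list median was -0.71. Ada, the adenosine deaminase, differed by 0.96, Map3k6, a stress kinase, by 0.95, Prr5, a subunit of the mTORC2 complex, by 0.82, Pde2a, a phosphodiesterase, by 0.81 and Kirrel2 by 0.79.

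Interferon-induced genes were lower in Sbp-high brains across the list. Of 26 type I interferon response genes 25 were lower, 0 were higher and 1 overlapped, with a median difference of -1.37 against 0.01 for all genes. Ifit3, an antiviral RNA-binding protein, measured 12.1, 25.6, 10.96, 13.1 and 20.3 CPM in Sbp-high libraries, against 46.9, 57.4, 59.0 and 56.2 CPM in Sbp-low libraries. The naive range was 7.80 to 10.95 CPM, just below the lowest Sbp-high library and far below all Sbp-low libraries. Irf7, the factor that amplifies the response, differed by -1.93, Oasl2 by -1.79 and Ifit1 by -1.74. The 1 gene that overlapped was Isg15, a ubiquitin-like modifier, at 2.24 to 8.02 CPM in Sbp-high and 7.81 to 11.2 CPM in Sbp-low libraries.

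Genes that interferon gamma induces were lower as well. Of 15 interferon gamma GTPases 10 were lower and 5 overlapped, with a median difference of -1.76. Iigp1 measured 5.24, 19.7, 4.97, 6.20 and 9.62 CPM in Sbp-high libraries, against 33.8, 31.3, 22.1 and 41.8 CPM in Sbp-low libraries. Igtp measured 11.7, 36.4, 7.20, 16.1 and 16.4 CPM in Sbp-high libraries, against 59.6, 63.0, 42.5 and 81.9 CPM in Sbp-low libraries. In both, Sbp-high replicate 2 stood between its own set and the Sbp-low set. That library was also why ranges met for Gbp2, where it held 33.9 CPM against 33.8 CPM in Sbp-low replicate 8.

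Antigen presentation was lower on both arms. All 15 MHC class I and immunoproteasome genes were lower, with a median difference of -1.55, and so were 8 of 10 MHC class II genes, with a median of -1.22. B2m, the light chain of MHC class I, measured 152, 320, 133, 124 and 239 CPM in Sbp-high libraries, against 537, 615, 498 and 578 CPM in Sbp-low libraries. H2-Q7 differed by -2.24, H2-Q4 by -1.87 and Nlrc5, the activator of MHC class I transcription, by -1.86. Cd74, the invariant chain that guards the class II groove, measured 56.9, 193, 46.0, 53.0 and 110 CPM in Sbp-high libraries, against 398, 330, 233 and 401 CPM in Sbp-low libraries. Naive brains held 5.51 to 9.85 CPM, so Cd74 was several times above naive in both sets. H2-Aa, H2-Eb1 and H2-Ab1, the class II chains, differed by -2.42, -2.37 and -2.03. The H2 genes are a family of similar sequences, and their separate levels are uncertain.

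**Figure D3:**
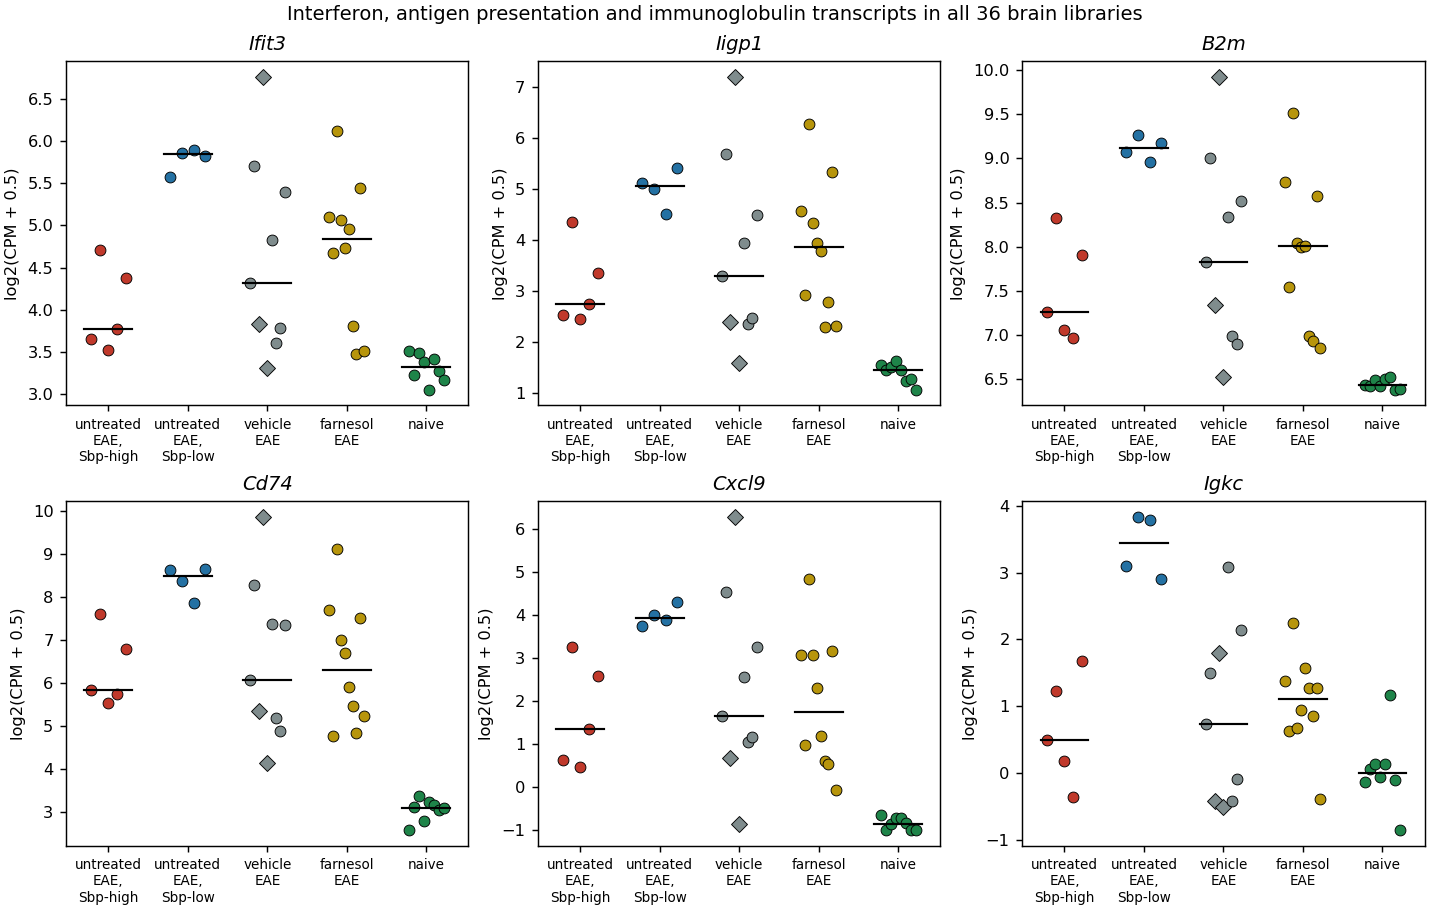
Expression (log2(CPM + 0.5), y axis) of Ifit3, Iigp1, B2m, Cd74, Cxcl9 and Igkc in each library of untreated EAE brains (Sbp-high, Sbp-low), vehicle EAE, farnesol EAE and naive brains (x axis). Each point is 1 library, bars are medians and diamonds mark the 3 vehicle libraries with Sbp above 1 CPM. All Sbp-high untreated libraries lie below all Sbp-low untreated libraries in each panel, while 1 of the 3 diamonds is the highest point for every gene but Igkc.

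Transcripts of lymphocytes were lower or overlapped. In whole brain tissue, fewer cells of a type and less RNA per cell cannot be told apart. Of 9 B cell genes 5 were lower with a median difference of -0.79, of 7 plasma cell genes 2 were lower with a median of -0.45, and of 17 T cell genes 6 were lower with a median of -0.55. None of these 3 lists had a higher gene. Igkc, the kappa light chain of immunoglobulin, measured 0.909, 1.85, 0.628, 0.284 and 2.70 CPM in Sbp-high libraries, against 8.10, 13.8, 13.4 and 7.00 CPM in Sbp-low libraries. Its difference of -2.95 was the largest negative one among the genes named by size. Ighm measured 18.0 to 22.7 CPM in Sbp-high and 33.1 to 42.9 CPM in Sbp-low libraries, while naive brains held 18.8 to 23.9 CPM. Cd79b, part of the B cell receptor, was lower by 0.81, whereas its partner Cd79a overlapped with -0.37, and Ms4a1 did not pass the count filter. Among T cell genes, Cd3g and Lat differed by -1.24 and -0.99 and the receptor chain Trac by -0.68, while Cd3e overlapped at 0.338 to 1.03 CPM in Sbp-high and 0.701 to 2.21 CPM in Sbp-low libraries. The summed level of the 17 T cell genes was 22.8 to 33.0 CPM in Sbp-high, 39.7 to 48.2 CPM in Sbp-low and 21.0 to 27.7 CPM in naive libraries, and the part of such cells in the interferon and MHC results was not tested.

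Chemokines that draw lymphocytes were among the lower genes. Cxcl9 measured 1.05, 9.03, 0.869, 2.04 and 5.45 CPM in Sbp-high libraries, against 12.9, 15.4, 14.1 and 19.1 CPM in Sbp-low libraries. Ccl5 differed by -2.62 and Cxcl10 by -1.81, and 7 of the 13 tested chemokines were lower, with a median difference of -0.89. Of 14 complement genes 8 were lower, with C4b at -1.72 and C3 at -1.67.

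Microglia, monocyte and reactive astrocyte lists leaned lower in Sbp-high brains, and the neutrophil list did not. Of 14 genes of activated microglia 12 were lower, with a median of -0.92 and with Cst7 at -2.24, Itgax at -1.65 and Clec7a at -1.57. Of 12 genes of homeostatic microglia 7 were lower, among them Cx3cr1 at -0.95, and Fcrls was higher. Of 16 monocyte and macrophage genes 6 were lower, with Lyz2 at -1.82. Neutrophil genes did not follow, since 1 of 13, Csf3r at -1.28, was lower and the list median was -0.04. S100a9, a neutrophil protein, measured 3.53 to 15.2 CPM in Sbp-high and 5.45 to 20.6 CPM in Sbp-low libraries, and Lcn2 15.4 to 66.6 CPM in Sbp-high and 48.6 to 57.5 CPM in Sbp-low libraries, so both overlapped. Of 18 reactive astrocyte genes 9 were lower, with Gfap at 357 to 521 CPM in Sbp-high and 715 to 969 CPM in Sbp-low libraries. Lists share genes: this one also holds Iigp1 and Cxcl10, which belong to the GTPase and chemokine lists above.

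In several lists no gene separated the sets. This held for genes of oligodendrocytes and myelin (14 tested), sterol synthesis (16), cytosolic heat shock (12), endoplasmic reticulum chaperones (13), inhibitory neurons (11) and cerebellum (12). Since ranges overlapped for 17293 of all 18438 tested genes, short lists may hold no separating gene. In the immediate early list, by contrast, 8 of 12 genes were lower, with a median of -0.62. Fos measured 21.5, 27.5, 25.9, 23.5 and 25.0 CPM in Sbp-high libraries, against 45.0, 67.0, 42.1 and 46.1 CPM in Sbp-low libraries. Arc and Egr2, which neuronal activity induces, differed by -0.75 and -0.997.

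**Figure D4:**
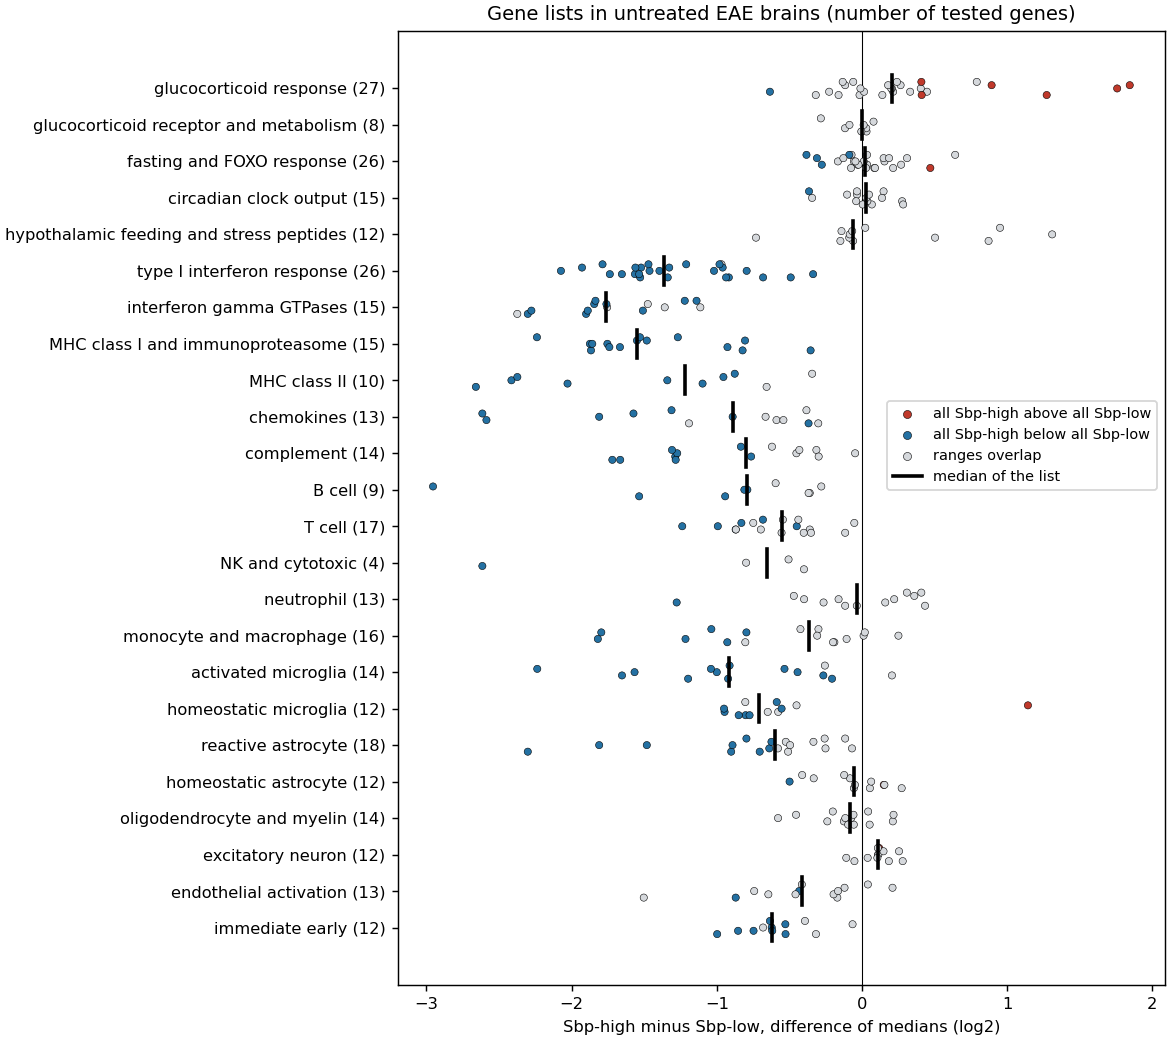
Difference of medians, Sbp-high minus Sbp-low (x axis, log2), for each tested gene of 24 lists (rows, with the number of tested genes). Red and blue points are genes higher or lower in all Sbp-high libraries, grey points overlap between the sets and black bars are list medians. The interferon and MHC rows lie left of 0, with medians of -1.22 to -1.76, and the glucocorticoid row holds red points up to 1.84 beside grey points around 0.

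Naive and vehicle medians mostly lay nearer to the Sbp-high set in the lower genes, which the split itself picked. No such count was made over all genes or for farnesol libraries. For 704 of the 862 lower genes the naive median lay nearer to the Sbp-high than to the Sbp-low median, and for 691 the vehicle median did so. For the 283 higher genes the counts were 168 for naive and 115 for vehicle. The Sbp-low median exceeded the vehicle median in 845 of the 862 lower genes, and the Sbp-high median exceeded it in 200.

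Among vehicle EAE brains, replicates 3, 4 and 5 also carried Sbp, at 5.09, 7.71 and 6.19 CPM, with Sbpl at 1.19, 1.97 and 1.27 CPM. The other 6 vehicle libraries held at most 0.150 CPM of Sbp. The rule did not use them, and splitting them in the same way was chosen after these values were seen, so the following is again a description. With 3 libraries against 6, 155 genes (0.841%) were higher and 110 (0.597%) were lower in the Sbp-carrying libraries. Of the 283 genes higher in untreated Sbp-high brains, 6 were higher here too. They hold Sbp, which made both splits, and Sbpl, which may share its reads, beside Hif3a, Proser2, 5430419D17Rik and A230056P14Rik. Another 2 of the 283, Galnt14 and Gm44899, were lower here. Of the 862 lower genes, 1 was lower here too, Lama4, a laminin chain, and none was higher. These genes other than Sbp, Sbpl and Hif3a were named after their values were seen.

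Hif3a measured 18.6, 18.8 and 14.5 CPM in the 3 Sbp-carrying vehicle libraries, against 5.46 to 13.97 CPM in the other 6. Fkbp5 measured 65.1, 85.8 and 44.1 CPM in them, against 27.9 to 57.8 CPM in the other 6, so its ranges overlapped. Interferon and MHC genes differed widely among the 3: Ifit3 measured 13.7, 108 and 9.43 CPM, Cd74 40.1, 935 and 17.04 CPM, and Igtp 9.39, 245 and 5.88 CPM. Vehicle replicate 4 thus held Sbp beside the highest Ifit3 and Cd74 of all 36 libraries, while replicates 3 and 5 lay below the vehicle medians of both genes (19.5 and 67.1 CPM). No gene of the interferon and MHC lists separated the 3 from the other 6. Over all genes 0.841% were higher and 0.597% lower, so lists of this length may hold none. The list medians of the difference were -0.59 for type I interferon, -0.80 for interferon gamma GTPases, -0.93 for MHC class II and -0.72 for MHC class I, against 0 for all genes.

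Whether genes move with Fkbp5 was tested in the 19 gavaged EAE libraries, none of which entered the split. The level of each gene was fitted against log2 Fkbp5 with treatment as a term (edgeR quasi-likelihood, Benjamini-Hochberg over 17531 genes), and p-values here and below measure the spread between libraries labelled as replicates. At adjusted p below 0.05, 6 genes had a positive slope (0.0342%) and 2 a negative slope (0.0114%). All 6 positive genes, namely Plin4, Xdh, Mertk, Map3k6, Hif3a and Zbtb16, were among the 273 genes tested here that were higher in untreated Sbp-high brains. Plin4 had a slope of 1.93 ± 0.19 log2 per log2 of Fkbp5 (SE, edgeR adjusted p = 2.94e-05), so it changed more steeply than Fkbp5 itself. Xdh, the xanthine dehydrogenase, had a slope of 1.02 ± 0.12 (edgeR adjusted p = 0.000154) and Hif3a of 1.07 ± 0.18 (edgeR adjusted p = 0.0227). The slope was 0.54 ± 0.07 for Mertk, 0.77 ± 0.12 for Map3k6 and 0.85 ± 0.15 for Zbtb16, with edgeR adjusted p of 0.000555, 0.00842 and 0.0263. The negative slopes were those of Fgfr2, a growth factor receptor, at -0.33 ± 0.04 (edgeR adjusted p = 0.000755) and Col6a6, a collagen chain, at -1.38 ± 0.25 (edgeR adjusted p = 0.0438). Fgfr2 was also lower in Sbp-high brains, by 0.14, and Col6a6 was not. When 1 library was left out, the edgeR adjusted p reached 0.094 for Hif3a, 0.0763 for Zbtb16 and 0.154 for Col6a6, so these calls did not hold throughout. Xdh, Mertk, Fgfr2 and Col6a6 were named after their values were seen. Fitted alone, the vehicle libraries gave only Plin4 (1.75 per log2, edgeR adjusted p = 0.00487) and the farnesol libraries gave no gene at adjusted p below 0.05, with 980 at unadjusted p below 0.05. No difference in slope between the treatments was called (the edgeR adjusted p was 1 for each gene named here).

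The genes that were lower in Sbp-high brains mostly leaned towards positive slopes in gavaged brains. Of the 837 of them tested, 692 (82.7%) had a positive slope on Fkbp5, with a median of 0.32, against 48.5% of all genes. Of the 273 higher genes tested, 102 (37.4%) had a positive slope. Gbp2 had a slope of 1.81 and Cd74 of 1.60, but neither passed (edgeR adjusted p = 0.178 and 0.305). When 1 library was left out, these slopes ranged from 1.356 to 2.137 and from 0.898 to 2.006. In untreated brains, by contrast, the Sbp-high libraries, which held more Fkbp5, had lower medians of both genes. These shares carry no test, and the difference between the relations in untreated and gavaged brains was not tested. Vehicle replicate 4 held the highest Fkbp5, Ifit3 and Cd74 of its group, and its part in these shares was not tested.

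Single relations with Fkbp5 were also computed for 12 genes in each gavaged group, 24 in all. In vehicle libraries (n = 9) Fkbp5 and Plin4 gave Pearson r = 0.965 (exact permutation p = 8.27e-06, adjusted p = 0.000198) and Spearman rho = 0.983 (exact permutation p = 4.96e-05, adjusted p = 0.00119). Without the 2 libraries farthest from the median of Fkbp5, r was 0.924. In farnesol libraries (n = 10) the same pair gave r = 0.893 (permutation p = 0.00063, adjusted p = 0.00739) and rho = 0.939 (permutation p = 0.00022, adjusted p = 0.00264), with r = 0.811 without 2 libraries. Zbtb16 in vehicle libraries gave r = 0.883 (exact permutation p = 0.000923, adjusted p = 0.00739) and rho = 0.900 (exact permutation p = 0.00203, adjusted p = 0.0162), with r = 0.885 without 2. In farnesol libraries Zbtb16 did not pass, with r = 0.643 (permutation, adjusted p = 0.107) and rho = 0.636 (permutation, adjusted p = 0.134). Sgk1 in farnesol libraries passed by Spearman only, with rho = 0.806 (permutation p = 0.00747, adjusted p = 0.0448) and r = 0.715 (permutation p = 0.0234, adjusted p = 0.0803), and r was 0.610 without 2. In vehicle libraries Sgk1 had the opposite sign and did not pass, with r = -0.216 (exact permutation, adjusted p = 0.655) and rho = -0.233 (exact permutation, adjusted p = 0.736). None of the 6 lymphocyte, interferon and MHC partners passed in either group: r with Gbp2 was 0.437 in vehicle (exact permutation, adjusted p = 0.381) and 0.658 in farnesol libraries (permutation, adjusted p = 0.111). Without 2 libraries, r in vehicle was 0.07 for Gbp2, -0.002 for Cd74 and -0.16 for Ifit1. In farnesol libraries it was 0.567, 0.453 and 0.683.

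**Figure D5:**
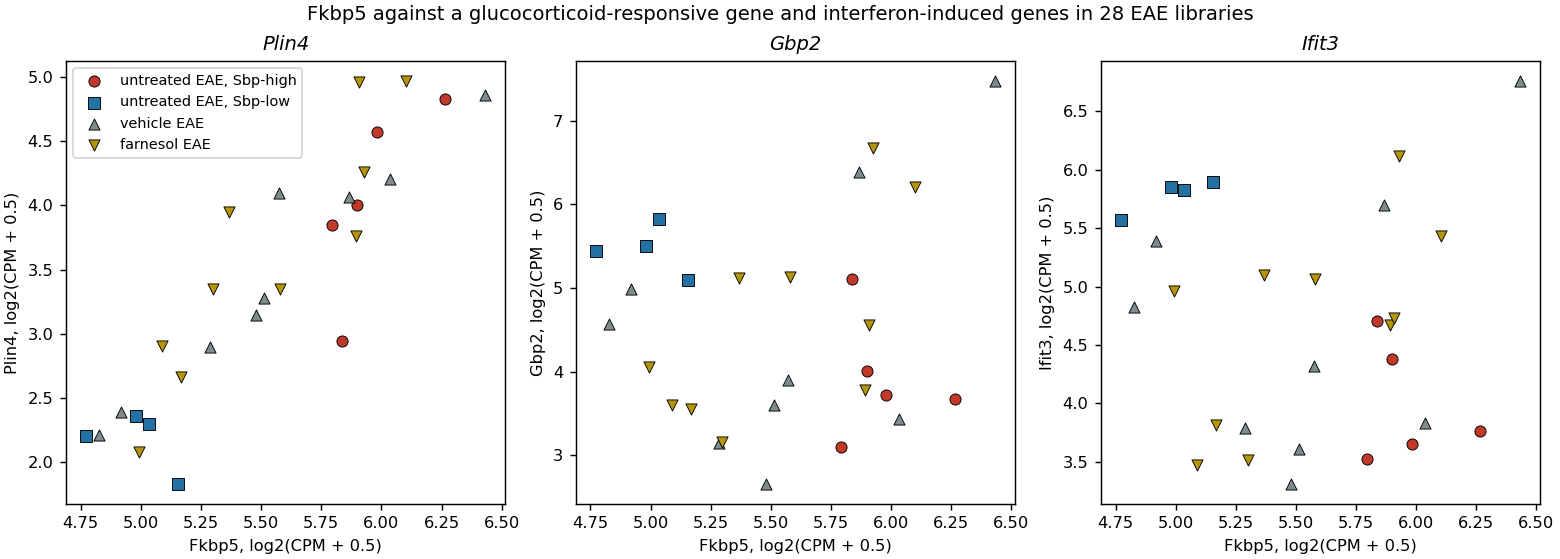
Fkbp5 (x axis) against Plin4, Gbp2 and Ifit3 (y axes), all in log2(CPM + 0.5), with 1 point for each of 28 EAE libraries. Plin4 is higher where Fkbp5 is higher across the 28 libraries, while for Gbp2 and Ifit3 the 4 Sbp-low untreated libraries (blue squares) lie high at low Fkbp5 and 1 vehicle library at the top right holds the highest Fkbp5, Gbp2 and Ifit3 of all.

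With all 9 untreated brains as 1 group against vehicle EAE brains, 4 genes were higher (0.0217%) and none was lower at edgeR adjusted p below 0.05, with 1522 genes at unadjusted p below 0.05 and 29 calls by DESeq2. None of the 4 separated the Sbp-high from the Sbp-low libraries. Ier5, an immediate early regulator, averaged 86.9 ± 5.44 CPM in untreated and 64.4 ± 7.65 CPM in vehicle brains (SD, n = 9 each), a change of 0.43 ± 0.08 log2 (SE, edgeR adjusted p = 0.0391), and every untreated library lay above every vehicle library. Fmnl1, a formin, rose by 0.34 ± 0.07, Synj2, a lipid phosphatase, by 0.30 ± 0.06 and Kcnip3, a calcium-binding channel partner, by 0.28 ± 0.05, each with edgeR adjusted p = 0.0391. Leaving out untreated replicate 1, 2, 5 or 8 left no call by edgeR, with 1171 to 1451 genes at unadjusted p below 0.05.

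Against naive brains, 2505 genes were higher (13.6%) and 2081 lower (11.3%) in untreated EAE. Of 27 glucocorticoid response genes 21 rose and none fell, with a median change of 0.53 log2 against -0.01 for all genes, and 24 of 26 type I interferon genes rose, with a median of 1.80. The glucocorticoid list shares Lcn2 with the neutrophil and reactive astrocyte lists, and the part of inflammation in this list's rise was not tested. Fkbp5 averaged 48.4 ± 17.4 CPM in untreated and 28.8 ± 2.83 CPM in naive brains (SD, n = 9 and 8) and rose by 0.75 ± 0.20 log2 (edgeR adjusted p = 0.00567). Without the Sbp-high libraries its change was 0.12 log2, and those of Plin4, Hif3a and Zbtb16 were 1.04, 0.22 and -0.29, against 2.54, 1.66 and 0.68 in all untreated libraries. Ifit3 rose by 1.82 ± 0.44 (edgeR adjusted p = 0.00219), with 0.79 when the Sbp-low libraries were left out and 2.53 when the Sbp-high libraries were. Cd74 rose by 4.67 ± 0.77 (edgeR adjusted p = 3.28e-05), with 3.53 without the Sbp-low and 5.42 without the Sbp-high libraries. These partial values rest on sets chosen by Sbp and carry no test here.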

How the data were processed

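Total RNA of whole brains was sequenced as 36 libraries. The deposited values are whole read counts of 54532 Ensembl genes, not normalized by the authors, in a single table. The aligner was STAR 2.5 and the genome mm10, per the submitters' processing notes, and Kallisto is also named per the labels' protocols. Which program counted the reads, with what annotation and strand setting, is not given in the sources used here, so reads of overlapping or near-identical genes may have been shared. Symbols came from GENCODE by identifier and covered 99.94% of counts.

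The members of the Sbp split and all gene lists were chosen with earlier results of these data known. After filterByExpr (minimum count 10, total 15), 18438 genes were kept and scaled by TMM with edgeR 4.0.16 in R 4.3.3. Libraries held 14705992 to 24211092 counts. Untreated EAE was compared with vehicle EAE and with naive brains in 1 quasi-likelihood fit of all 36 libraries with a mean per group (glmQLFit and glmQLFTest), adjusted by Benjamini-Hochberg, called at adjusted p below 0.05 whatever the fold. Each SE was derived from the log2 change and its F statistic. The slope fit used the 19 gavaged EAE libraries with treatment as a term. Correlations used log2(CPM + 0.5), with a pseudocount of 0.5. The 9 vehicle libraries were enumerated exactly (362880 arrangements) in place of the planned resampling, and the 10 farnesol libraries used 100000 resamples. All tests were two-sided.

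Genes were named by rule: the 12 largest differences each way with a median of at least 1 CPM in either set and an assigned symbol, up to 4 of largest difference in each list described, a fixed set of glucocorticoid, fasting, lymphocyte and interferon genes, and genes called against vehicle. Other names are said to be chosen after values were seen. Some genes that the rule names are not reported here. Alternatives were RLE scaling, column totals, DESeq2 1.42.0, other count filters, fits of only the groups compared, a replicate block, a ribosomal RNA term, a pseudocount of 2 and leaving out libraries. The fits were tested on simulated counts. Figures used matplotlib 3.10.9.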

Additional observations from a re-analysis of the deposited data

Results flagged for a closer look

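Of 108 checks for a library far from the rest of its group, run on library measures and named genes in the untreated and vehicle groups only, 5 were positive, and chance gives about 1 in 20. Pomc was 350 CPM in untreated replicate 3, an Sbp-high library, far above the other 8 untreated libraries. Pomc was also far above the rest in vehicle replicate 8, at 29.3 CPM. The total of 14705992 counts (14.71 M) in untreated replicate 1, also Sbp-high, was far below the other untreated libraries. Mitochondrial transcripts took 5.62% of counts in untreated replicate 7, an Sbp-low library, far above the others of its group. Fcrls was 2.67 CPM in vehicle replicate 4, far below the other vehicle libraries, in the library that held the highest Fkbp5, Ifit3 and Cd74 of its group.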

How the results depend on the processing

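The 1145 genes that separated the sets (283 higher, 862 lower) numbered 1062 to 1326 under RLE scaling, column totals and other filters, and 1337 to 1970 when each untreated library was left out, as fewer libraries overlap less. Leaving out Sbp-low replicate 8 or 9 gave 1967 and 1970, with 768 and 750 of them higher. The 4 calls of untreated against vehicle brains were 7 under RLE scaling, 29 by DESeq2, 7 with a mean of at least 1 CPM and 1 with only both groups fitted. They were 11 without the Sbp-high and 68 without the Sbp-low untreated libraries. Those counts rest on sets of 4 and 5 libraries chosen by Sbp, so they are no test of a difference from vehicle brains. The calls against vehicle were 0 without Sbp-carrying untreated and vehicle libraries, an alternative chosen after seeing the data (1437 at unadjusted p below 0.05). Leaving out each untreated library gave 0 to 9: 0 without replicate 1, 2, 5 or 8, 1 without 3, 2 without 4, 9 without 6 and 8 without 7. The 4586 calls against naive stayed between 3240 and 4684 under all alternatives run. There, without Sbp-high libraries, the log2 changes were 0.12 for Fkbp5, 1.04 for Plin4, 0.22 for Hif3a and -0.29 for Zbtb16. Without Sbp-low libraries, those of Ifit3, Iigp1 and B2m were 0.79, 2.10 and 1.16. Both fits rest on sets chosen by Sbp, for genes that separate those sets, and carry no test here. The 8 genes that followed Fkbp5 were 49 by DESeq2, 24 with no filter, 7 with the ribosomal RNA term, 1 in vehicle and 0 in farnesol libraries alone, and 5 to 23 when each library was left out. They were 15 without vehicle replicate 3, 23 and 14 without farnesol replicates 1 and 2, and 5 without farnesol replicate 7 or 9. The 3 relations that passed by Pearson were 3 with a pseudocount of 2 and under RLE scaling. Replicate numbers did not pair libraries: untreated and vehicle deviations of the same number correlated at -0.385 to 0.156, with 3 of 9 pairs over 0.1 and no library correlating best with its own number. With the replicate block, calls were 10 against vehicle, 4304 against naive and 2 for Fkbp5 (Plin4 and Xdh), and Zbtb16 did not pass against naive (edgeR adjusted p = 0.0779). Zbtb16 also did not pass there with no filter (0.0511), with only both groups fitted (0.0553) or without any 1 of untreated replicates 1 to 5 (0.0623 to 0.119). Apart from fewer libraries, the cause of these shifts was not tested.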

Other observations

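Some genes of the vessel wall separated the sets, where 1.53% of all tested genes were higher and 4.68% were lower. Icam1, which holds leukocytes to endothelium, measured 10.4, 9.48, 4.97, 7.29 and 10.6 CPM in Sbp-high libraries, against 20.8, 16.98, 12.2 and 18.5 CPM in Sbp-low libraries. Of 13 genes of endothelial activation 2 were lower and 11 overlapped, with Selp, the P-selectin, at 0.386 to 4.76 CPM in Sbp-high and 1.79 to 5.88 CPM in Sbp-low libraries. Of 14 blood-brain barrier genes 1 was higher and 2 were lower, and Slc2a1, the glucose transporter, overlapped with a difference of 0.41.

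Of 9 tested genes of metallothioneins and iron 3 were lower, among them Hmox1, the haem oxygenase, at 5.45 to 7.47 CPM in Sbp-high and 8.41 to 9.91 CPM in Sbp-low libraries, and Ftl1, the ferritin light chain, by 0.35. Of 15 clock genes 14 overlapped, with Dbp, a clock output, at 48.7 to 78.0 CPM in Sbp-high and 51.4 to 55.0 CPM in Sbp-low libraries, while Nfil3, its repressor counterpart, was lower by 0.36. None of the 13 mitochondrially encoded genes, 11 genes of meninges and fibroblasts or 10 of the choroid plexus separated the sets. Ranges overlapped for 17293 of all 18438 tested genes too. These values rest on the Sbp split and carry no test.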
